A study of Mus musculus with 9 samples.

Results

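The genes described here encode amino acid transporters of the plasma membrane and the lysosome. They were taken as the protein-coding genes of the deposited table whose symbols belong to the solute carrier families Slc1, Slc3, Slc6, Slc7, Slc36, Slc38 and Slc43, without Slc7a11. The rule gave 60 genes, of 22046 protein-coding genes and 54532 genes in all. It takes in a few carriers of related compounds, such as taurine and creatine. RNA with polyA tails was sequenced from 4T1 cells, a mouse mammary carcinoma line, grown in high-glucose medium with 10% FBS. The Au_TCPP group received Au/Cu-TCPP(Fe)-PEG, a nanomaterial that the labels describe as acting like a glucose oxidase and consuming glutathione (GSH). The Cu_TCPP group received Cu-TCPP(Fe)-PEG, labelled as GSH-consuming, and the Control group received medium. Each group had 3 libraries, the series' design text gives a treatment of 24 h, and no label states a dose. All cells were of this 1 line, and the labels do not say whether replicates were separate cultures. The p-values therefore speak only of variation among these libraries, which may be technical.

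Cells take up essential amino acids and exchange others for them through these carriers. Slc3a2, the heavy chain also called CD98, is a single-pass glycoprotein that carries no substrate itself and brings light chains of the Slc7 family to the cell surface, where the pair exchanges amino acids. Other carriers couple uptake to sodium, and those on lysosomes return amino acids to the cytosol or report their level to the kinase complex mTORC1. When amino acids run short, the kinase Gcn2 and the transcription factor Atf4 are known to raise the mRNA of several of these carriers.

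Levels are given as CPM, read counts relative to the TMM-scaled library total, for comparing groups, and as the deposited FPKM, which divide by gene length, for comparing genes. Of the 60 genes, 19 had enough reads to be tested and 41 did not. Among these 41, 12 had a count of 0 in all 9 libraries and 29 had at least 1 read. The highest sum over the 9 libraries was 46 reads, for the cationic carrier gene Slc7a3, so little could be detected among these 41 genes at this depth. The genes tested were 2 of 7 in Slc1, 1 of 2 in Slc3, 2 of 4 in Slc36, 6 of 11 in Slc38, 1 of 3 in Slc43, 3 of 19 in Slc6 and 4 of 14 in Slc7. Library totals lay between 15477324 and 17494776 reads. Au_TCPP replicate 2 stood apart, with 2.37% of its reads from mitochondrially encoded genes, against 1.09 to 1.47% in the other 8 libraries, and results that rest on it are given with and without it. Reads in the Au_TCPP libraries fell on shorter genes, with a mean gene length of 4549 to 4669 bases per read, against 5601 to 5720 in Cu_TCPP and 5632 to 5754 in Control.

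With Au_TCPP, 4 transporter genes were higher and 10 lower than in Control, and 5 did not pass. The changes ran from a 2.06-fold higher level of the heavy chain gene Slc3a2 to a 7.34-fold lower level of Slc43a2, a carrier of branched-chain amino acids. A gene is called when its adjusted p is under 0.05 in edgeR's quasi-likelihood test with Benjamini-Hochberg adjustment over the 13915 genes tested, and 69.1% of all genes were called in this comparison, 34.4% higher and 34.7% lower. The 14 transporter genes are 73.7% of the 19, near that share, while the 10 lower ones are 52.6%. The median log2 fold change of the 19 was -0.41, against -0.01 over all genes tested. Over the 8034 tested genes of at least 3315 bases, the length of the shortest of the 19, it was -0.23. Scaling matters here: with library totals alone the median of all genes lay at -0.43, and 1 transporter gene was higher and 13 lower. In that setting 2626 of all 13915 genes were higher and 7098 lower. In bulk RNA, fewer cells of a type and less RNA per cell cannot be told apart.

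With Cu_TCPP, 5 genes were higher and 5 lower than in Control, and 9 did not pass. These 10 are 52.6% of the 19, where 40.4% of all genes were called, 19.2% higher and 21.2% lower, and the median was -0.16 against -0.01 over all genes. Slc7a6, a light chain, had the largest fold change upwards among the called genes, 1.69-fold, and Slc43a2 the largest downwards, 3.54-fold. Because the model estimates each gene's variation from the 9 libraries together, Au_TCPP replicates bear on these p-values too. Without Au_TCPP replicate 2, 14 genes were called, the added ones being Slc38a10 and Slc7a5 (higher) and Slc38a9 and Slc3a2 (lower). Calls rose over all genes too, to 3627 higher and 3552 lower of 14232 tested, from 2673 and 2944 of 13915.

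Between the materials, 6 genes were higher and 10 lower in Au_TCPP than in Cu_TCPP, and 3 did not pass. The 16 called genes are 84.2% of the 19, where 65.9% of all genes were called, 34.6% higher and 31.3% lower. The median of the 19 was -0.31, against 0.04 over all genes and -0.16 over the 8034 of at least 3315 bases. With library totals alone the median of all genes was -0.33 and the split of the transporter genes 2 higher and 13 lower. In that setting 2830 of all 13915 genes were higher and 6526 lower. Each of the 19 genes was called in at least 1 comparison and 4 in all 3. The share of all genes with such joint patterns, these or the following, was not counted. In the single comparisons 40.4% (Cu_TCPP against Control), 69.1% (Au_TCPP against Control) and 65.9% (between the materials) of all genes were called. Both comparisons against Control use the same Control libraries. In them 5 genes were called with each material, of which Slc38a7, Slc43a2 and Slc7a7 were lower with both, Slc7a6 was higher with both, and Slc6a6 was lower with Au_TCPP and higher with Cu_TCPP.

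**Figure D1:**
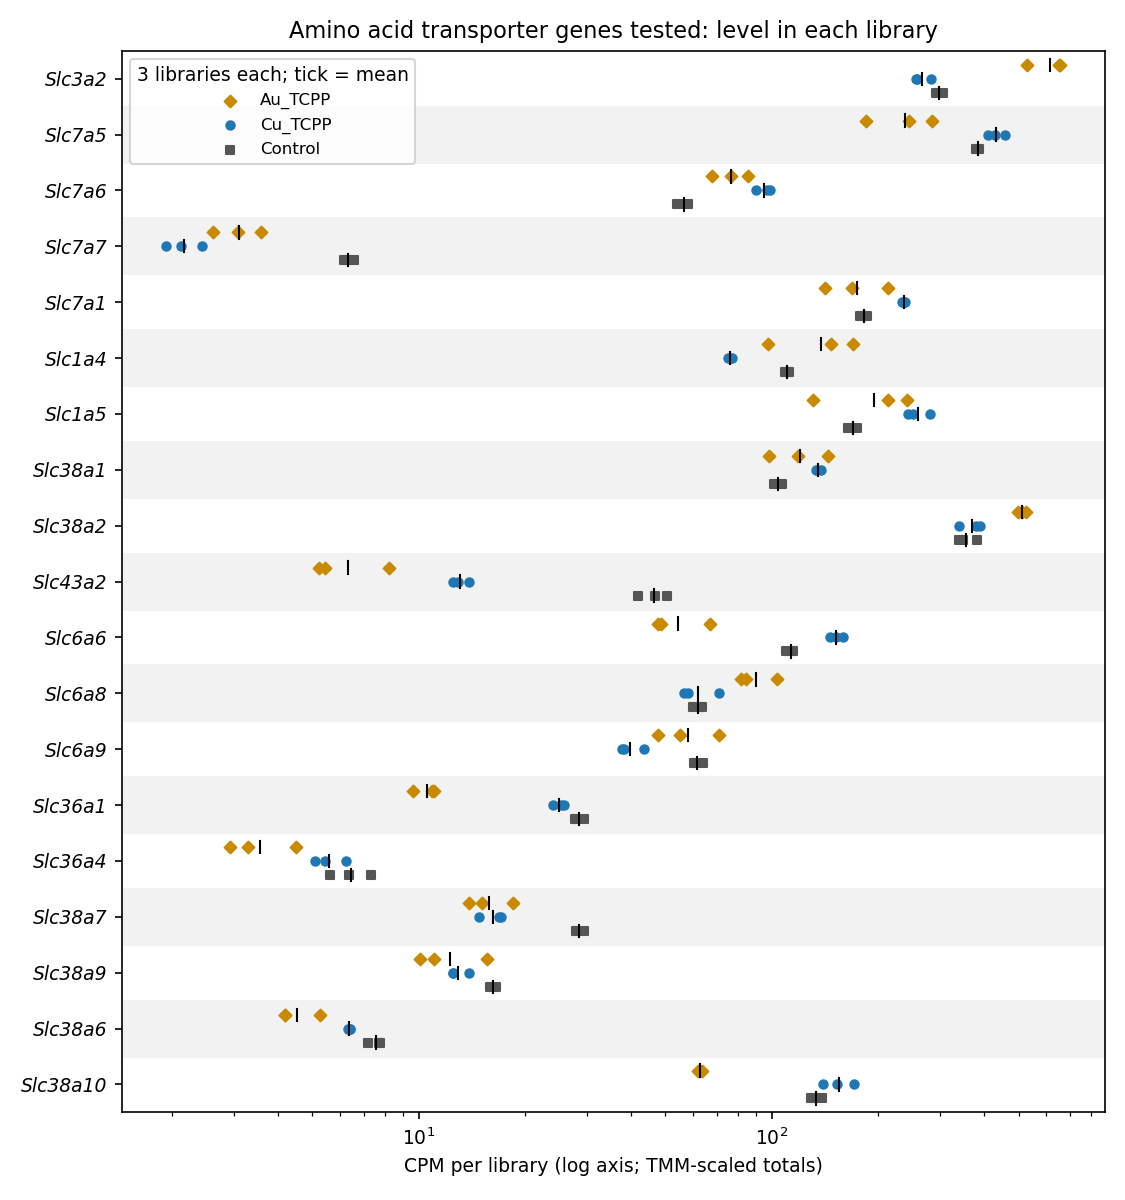
CPM of the 19 transporter genes tested in each of the 9 libraries, on a log axis, with Au_TCPP above Cu_TCPP and Control in each row and a tick at each group's mean. Slc3a2 and Slc38a2 lie furthest right in Au_TCPP, and Slc43a2 spans from 5.23 CPM in Au_TCPP to 50.6 CPM in Control.

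**Figure D2:**
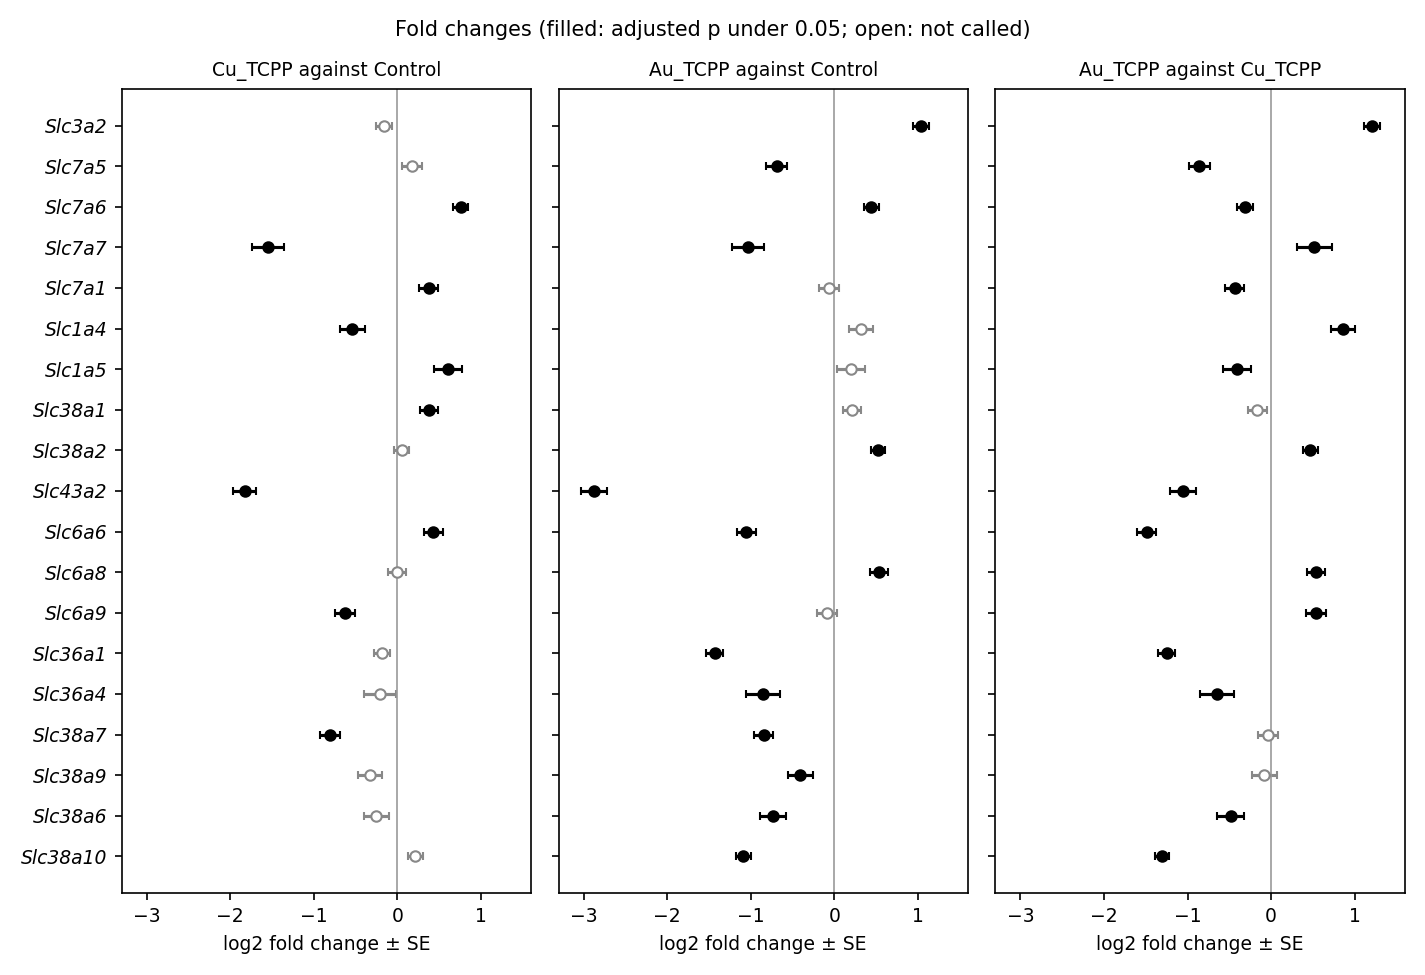
Log2 fold change with its standard error for each of the 19 genes in the 3 comparisons, the first-named group over the second, with filled points for an adjusted p under 0.05. In Au_TCPP against Control, 4 filled points lie right of 0 and 10 left of it.

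The heavy chain gene and its main light chain gene moved in opposite directions with Au_TCPP. Slc3a2 (ENSMUSG00000010095, chr19:8706882-8723369, minus strand; coordinates are those of the deposited table, on mm10) had 656, 530 and 653 CPM in the Au_TCPP libraries, 257, 283 and 259 CPM in the Cu_TCPP libraries and 292, 296 and 306 CPM in the Control libraries. All 3 Au_TCPP libraries lay above the other 6, and the Cu_TCPP libraries lay just below Control without overlap. The log2 fold change was 1.04 (SE 0.10, adjusted p = 2.3e-07) for Au_TCPP against Control and 1.20 (SE 0.10, adjusted p = 5.9e-08) for Au_TCPP against Cu_TCPP. For Cu_TCPP against Control it was -0.16 (adjusted p = 0.19), and without Au_TCPP replicate 2 the adjusted p of that comparison was 0.045.

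Slc7a5 (ENSMUSG00000040010, chr8:121881150-121907694, minus strand) encodes LAT1, the light chain that brings in leucine and other large neutral amino acids in exchange for glutamine. It had 245, 185 and 285 CPM with Au_TCPP, 410, 459 and 428 CPM with Cu_TCPP and 378, 384 and 387 CPM in Control. The Au_TCPP libraries were the 3 lowest and the Cu_TCPP libraries the 3 highest. Slc7a5 fell by 0.69 on the log2 scale with Au_TCPP against Control (SE 0.12, adjusted p = 0.00019) and by 0.86 against Cu_TCPP (SE 0.12, adjusted p = 2.5e-05). The difference between Cu_TCPP and Control, 0.17, did not pass (adjusted p = 0.28), but had an adjusted p of 0.028 without Au_TCPP replicate 2.

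Slc7a6 (ENSMUSG00000031904, chr8:106168857-106198706, plus strand) encodes y+LAT2, which exports arginine and lysine in exchange for neutral amino acids. Its levels were 76.9, 67.6 and 85.8 CPM with Au_TCPP, 98.6, 90.5 and 96.9 CPM with Cu_TCPP and 58.0, 53.8 and 57.3 CPM in Control. The 3 groups did not overlap, with Cu_TCPP highest and Control lowest. Slc7a6 was 1.69-fold higher with Cu_TCPP (log2 0.76, SE 0.09, adjusted p = 2.3e-05) and 1.36-fold higher with Au_TCPP (log2 0.45, SE 0.09, adjusted p = 0.00058) than in Control. It was 1.24-fold lower with Au_TCPP than with Cu_TCPP (adjusted p = 0.0073). With library totals alone the difference between Au_TCPP and Control was 0.02 on the log2 scale (adjusted p = 0.85), while the other 2 kept their call.

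Slc7a7 (ENSMUSG00000000958, chr14:54369442-54417780, minus strand) encodes y+LAT1, a light chain with the same type of exchange, whose loss in humans causes lysinuric protein intolerance. It was little expressed, at 3.09 ± 0.482 CPM with Au_TCPP, 2.16 ± 0.252 CPM with Cu_TCPP and 6.32 ± 0.215 CPM in Control (SD, n = 3 each). The Control libraries lay above all treated ones. The log2 fold changes against Control were -1.03 with Au_TCPP (SE 0.19, adjusted p = 0.00024) and -1.55 with Cu_TCPP (SE 0.19, adjusted p = 3.1e-05). The difference between Au_TCPP and Cu_TCPP, 0.52 (adjusted p = 0.043), lost its call in most alternatives, among them DESeq2 (adjusted p = 0.079) and library totals alone (adjusted p = 0.56). In the annotation 232 exonic bases of Slc7a7, 7.0% of its length, overlap those of Oxa1l on the opposite strand. Oxa1l stood at 68.0, 67.9 and 89.6 CPM in Au_TCPP, Cu_TCPP and Control, and no source says whether strand was used in counting, so reads of the 2 genes in the shared bases cannot be told apart.

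Slc3a2 and Slc7a5 have almost the same length in the deposited table, 3529 and 3708 bases. That length is of the gene and not of the transcripts expressed, so ratios are read here for their change between groups. In FPKM the ratio of Slc7a5 to Slc3a2 was 0.36, 0.33 and 0.42 in the Au_TCPP libraries, 1.52, 1.55 and 1.58 in the Cu_TCPP libraries and 1.23, 1.24 and 1.21 in the Control libraries. Slc7a5 thus exceeded Slc3a2 in FPKM in each Cu_TCPP and Control library and was less than it in each Au_TCPP library. Whether the same holds for numbers of mRNA molecules was not tested. Summed over Slc7a5, Slc7a6 and Slc7a7, the light chains reached 0.47 ± 0.046 of the heavy chain with Au_TCPP, 1.83 ± 0.037 with Cu_TCPP and 1.39 ± 0.021 in Control (SD, n = 3 each). The 3 groups did not overlap for either ratio, and in each of the 3 comparisons the exact two-sided permutation test gave p = 0.1, the smallest that 3 against 3 libraries allow. Slc7a11, the cystine light chain that the rule leaves out, stood at 9.62, 3.25 and 14.9 FPKM in the Au_TCPP libraries, and with it the ratio was 0.52 ± 0.075 with Au_TCPP, 1.87 ± 0.041 with Cu_TCPP and 1.42 ± 0.023 in Control. A ratio within a library does not depend on the scaling between libraries.

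Among the light chains the make-up moved as well. Slc7a6 amounted to 0.266 ± 0.028 of Slc7a5 in FPKM with Au_TCPP, 0.180 ± 0.018 with Cu_TCPP and 0.119 ± 0.0054 in Control (SD, n = 3 each). The 3 groups did not overlap (exact two-sided permutation p = 0.1 in each comparison). Over the summed FPKM of the 60 transporter genes, Slc3a2 took 36.9% ± 1.38 with Au_TCPP, 17.2% ± 0.281 with Cu_TCPP and 20.5% ± 0.414 in Control. Slc7a5 took 13.5% ± 1.15 with Au_TCPP, 26.5% ± 0.565 with Cu_TCPP and 25.2% ± 0.319 in Control. In level per length Slc3a2 was first and Slc7a5 second of the 19 genes in Au_TCPP, at 170 ± 21.0 and 62.8 ± 13.7 FPKM. In Cu_TCPP Slc7a5 was first, at 117 ± 6.73 FPKM, and Slc3a2 second, at 75.8 ± 4.09. Control had the same order, with Slc7a5 at 101 ± 1.68 FPKM and Slc3a2 at 82.9 ± 2.44.

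**Figure D3:**
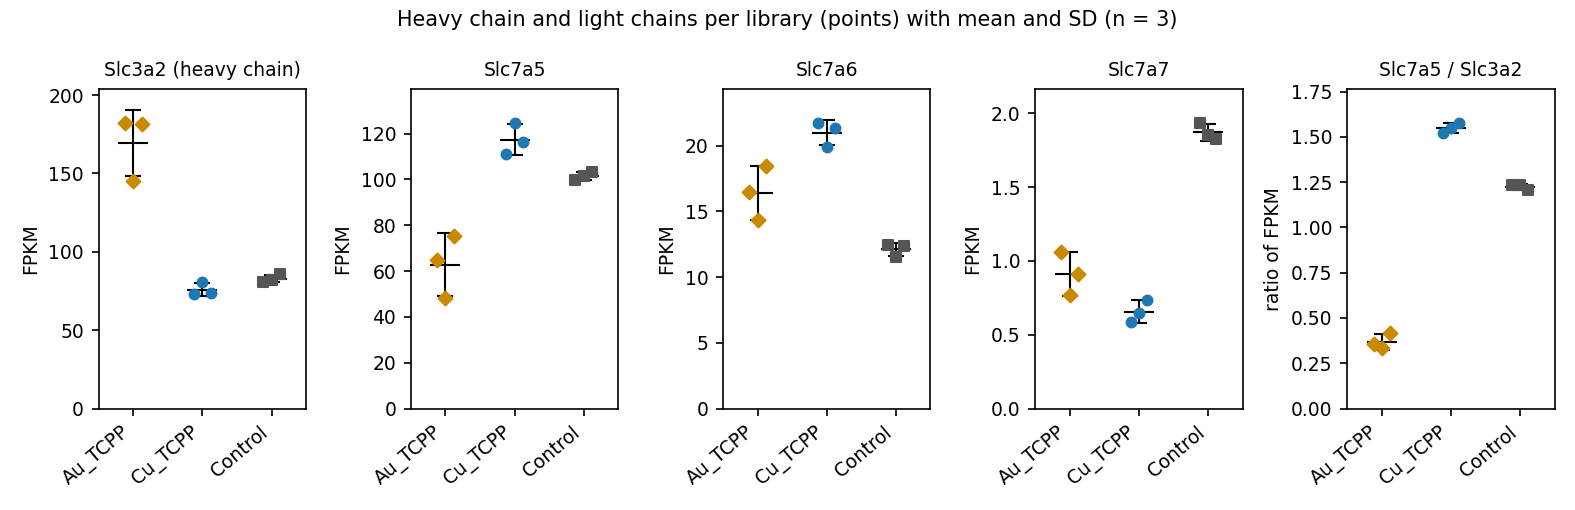
Deposited FPKM of Slc3a2, Slc7a5, Slc7a6 and Slc7a7 per library and, at the right, the ratio of Slc7a5 to Slc3a2, with the mean and SD of 3 libraries per group and each vertical axis starting at 0. The ratio lies between 0.33 and 0.42 in Au_TCPP, above 1.5 in Cu_TCPP and near 1.2 in Control.

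The cationic amino acid importer Slc7a1 (ENSMUSG00000041313, chr5:148327410-148399904, minus strand), or CAT1, works without the heavy chain and brings in arginine and lysine. It had 169, 142 and 213 CPM with Au_TCPP, 233, 237 and 238 CPM with Cu_TCPP and 187, 182 and 178 CPM in Control. The Au_TCPP libraries scattered around Control, and the Cu_TCPP libraries lay together above all others. It was 1.30-fold higher with Cu_TCPP than in Control (log2 0.38, SE 0.12, adjusted p = 0.019) and 1.35-fold lower with Au_TCPP than with Cu_TCPP (log2 -0.44, adjusted p = 0.0042), a difference that came to -0.02 (adjusted p = 0.91) with an offset for gene length. The higher level with Cu_TCPP than in Control lost its call without Control replicate 2, Control replicate 3 or Cu_TCPP replicate 3 (adjusted p = 0.055, 0.063 and 0.055). Au_TCPP against Control did not pass (log2 -0.06, adjusted p = 0.66). Without Au_TCPP replicate 3 that value was -0.26 (adjusted p = 0.020), with library totals alone -0.49 (adjusted p = 0.00031) and with the length offset 0.36 (adjusted p = 0.0072), so its direction changed with the setting.

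Of the neutral amino acid exchangers, Slc1a4 and Slc1a5 moved in opposite directions with Cu_TCPP. Slc1a4 (ENSMUSG00000020142, chr11:20302180-20332713, minus strand) encodes ASCT1, which exchanges alanine, serine and cysteine. It had 147, 97.7 and 169 CPM with Au_TCPP, 76.0, 77.1 and 75.1 CPM with Cu_TCPP and 109, 110 and 112 CPM in Control. The Cu_TCPP libraries were the 3 lowest, and Au_TCPP replicate 2 was below Control where the other 2 Au_TCPP libraries were above it. Slc1a4 fell by 0.54 on the log2 scale with Cu_TCPP (SE 0.15, adjusted p = 0.0098) and was 1.81-fold higher with Au_TCPP than with Cu_TCPP (log2 0.86, SE 0.15, adjusted p = 0.00014). Au_TCPP against Control did not pass (log2 0.32, adjusted p = 0.062), but was called without Au_TCPP replicate 2 (log2 0.49, adjusted p = 6.3e-06) and took the other sign with library totals alone (-0.11, adjusted p = 0.40).

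Slc1a5 (ENSMUSG00000001918, chr7:16781340-16798274, plus strand) encodes ASCT2, which brings in glutamine. It had 213, 131 and 242 CPM with Au_TCPP, 251, 281 and 244 CPM with Cu_TCPP and 174, 164 and 171 CPM in Control. Again Au_TCPP replicate 2 lay below Control and the other 2 Au_TCPP libraries above it, while every Cu_TCPP library exceeded every other library. Slc1a5 was 1.52-fold higher with Cu_TCPP than in Control (log2 0.61, SE 0.17, adjusted p = 0.011). It was 1.33-fold lower with Au_TCPP than with Cu_TCPP (adjusted p = 0.045), a call lost without any 1 of the Cu_TCPP libraries (adjusted p 0.057 to 0.10) and with the length offset (adjusted p = 0.075). That log2 difference, -0.41, was -0.22 without Au_TCPP replicate 2 and -0.64 without Au_TCPP replicate 3. Au_TCPP against Control gave 0.20 (adjusted p = 0.30), and 0.40 (adjusted p = 0.00016) without Au_TCPP replicate 2.

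Windows around the start of transcription, from 250 bases before it to 50 after it, were at hand from RefSeq (GRCm38.p6) for 14 of the 19 genes tested, in a table of 32851 windows. Slc1a5, Slc38a1, Slc6a6, Slc6a8 and Slc7a5 had none. They were searched on both strands for TGATGNAA, the core of the element through which Atf4 and C/EBP proteins are known to act. It was found in 3.97% of all windows, or for 4.51% of the 27025 genes with windows, and for 2 of the 14 genes, Slc1a4 and Slc7a7. Both are shown because they hold the element and were lower with Cu_TCPP than in Control. Slc7a7 has 5 windows in the table, and the start of the one shown lies beyond the end of the gene in the deposited table. The stretches run from 150 bases before to 20 after the start, read along the gene's strand, with the element in capitals; in Slc1a4 it lies on the other strand and reads TTGCATCA. They are chr11:20332694-20332863 (minus strand) and chr14:54417925-54418094 (minus strand).
Slc1a4: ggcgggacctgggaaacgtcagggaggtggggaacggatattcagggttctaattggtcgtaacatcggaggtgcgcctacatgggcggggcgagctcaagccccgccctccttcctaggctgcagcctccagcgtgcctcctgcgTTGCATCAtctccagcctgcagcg
Slc7a7: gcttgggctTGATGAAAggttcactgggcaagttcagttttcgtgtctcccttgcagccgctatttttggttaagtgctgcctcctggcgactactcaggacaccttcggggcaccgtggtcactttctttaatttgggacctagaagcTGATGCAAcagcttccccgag
The first base of the element lies 4 bases before the start in Slc1a4, and 141 and 1 before it in Slc7a7. A match is a match of letters and does not show that a factor binds.

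The sodium-coupled importers of glutamine, alanine and other small neutral amino acids, Slc38a1 (SNAT1) and Slc38a2 (SNAT2), differed in which comparisons passed. Slc38a2 (ENSMUSG00000022462, chr15:96687392-96699730, minus strand), known to be induced when amino acids are scarce, had 524, 511 and 497 CPM with Au_TCPP, 390, 338 and 378 CPM with Cu_TCPP and 381, 347 and 339 CPM in Control. The Au_TCPP libraries were the 3 highest, and Cu_TCPP and Control overlapped. It was 1.44-fold higher with Au_TCPP than in Control (log2 0.52, SE 0.09, adjusted p = 8.6e-05) and 1.38-fold higher than with Cu_TCPP (adjusted p = 0.00024). Both calls were lost with library totals alone (log2 0.10 in each, adjusted p = 0.30 and 0.32). Cu_TCPP against Control gave 0.05 (adjusted p = 0.66).

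Slc38a1 (ENSMUSG00000023169, chr15:96571418-96642913, minus strand) had 119, 98.4 and 145 CPM with Au_TCPP, 138, 134 and 134 CPM with Cu_TCPP and 101, 104 and 107 CPM in Control. The Cu_TCPP libraries lay above Control, and the Au_TCPP libraries overlapped both groups. It was 1.30-fold higher with Cu_TCPP than in Control (log2 0.38, SE 0.11, adjusted p = 0.014), a call lost without Control replicate 1 (adjusted p = 0.054). Au_TCPP against Control, 0.21, did not pass (adjusted p = 0.10), was called without Au_TCPP replicate 2 (0.31, adjusted p = 0.0019), and was called lower with library totals alone (-0.22, adjusted p = 0.043) and higher with the length offset (0.76, adjusted p = 1.5e-05). Au_TCPP against Cu_TCPP gave -0.17 (adjusted p = 0.20), but -0.36 (adjusted p = 0.0034) without Au_TCPP replicate 3 and 0.40 with the length offset.

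Slc43a2 (ENSMUSG00000038178, chr11:75531694-75577575, plus strand) encodes LAT4, which lets branched-chain amino acids, phenylalanine and methionine move down their gradient without a heavy chain. It had 5.23, 8.23 and 5.44 CPM with Au_TCPP, 12.9, 12.5 and 13.9 CPM with Cu_TCPP and 46.7, 41.9 and 50.6 CPM in Control. The 3 groups did not overlap, and Control lay far above both materials. The gene was 7.34-fold lower with Au_TCPP (log2 -2.88, SE 0.15, adjusted p = 1.0e-09) and 3.54-fold lower with Cu_TCPP (log2 -1.82, SE 0.14, adjusted p = 4.4e-07) than in Control. It was 2.07-fold lower with Au_TCPP than with Cu_TCPP (log2 -1.05, SE 0.16, adjusted p = 3.6e-05). All 3 calls held in each of the 19 alternatives. Exons of Gm45606 on the opposite strand overlap 9.18% of its length, and Gm45606 averaged at most 0.64 CPM in any group. Slc43a1 and Slc43a3, of the same family, had 0 and 12 reads in all 9 libraries together.

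The 3 genes of the sodium- and chloride-coupled Slc6 family that were tested differed in their course. Slc6a6 (ENSMUSG00000030096, chr6:91684053-91759066, plus strand), the taurine importer, had 47.6, 48.7 and 67.0 CPM with Au_TCPP, 146, 159 and 152 CPM with Cu_TCPP and 114, 110 and 115 CPM in Control. The groups did not overlap, with Au_TCPP lowest and Cu_TCPP highest. Against Control it was 2.08-fold lower with Au_TCPP (log2 -1.05, SE 0.11, adjusted p = 1.1e-06) and 1.35-fold higher with Cu_TCPP (log2 0.43, SE 0.11, adjusted p = 0.0058). Between the materials it was 2.80-fold lower with Au_TCPP (adjusted p = 3.6e-08), the largest difference downwards of the 19 genes in that comparison, and all 3 calls held in each alternative.

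Slc6a8 (ENSMUSG00000019558, chrX:73673150-73682502, plus strand), the creatine importer, had 81.6, 104 and 84.7 CPM with Au_TCPP, 56.6, 71.0 and 57.9 CPM with Cu_TCPP and 59.7, 63.4 and 62.7 CPM in Control. The Au_TCPP libraries were the 3 highest, and Cu_TCPP and Control overlapped. It was 1.45-fold higher with Au_TCPP than in Control (log2 0.54, SE 0.11, adjusted p = 0.00043) and 1.46-fold higher than with Cu_TCPP (adjusted p = 0.00043). With library totals alone both calls were lost (log2 0.12 and 0.18, adjusted p = 0.38 and 0.22). Cu_TCPP against Control did not pass (adjusted p = 0.98).

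Slc6a9 (ENSMUSG00000028542, chr4:117834506-117875198, plus strand), the glycine importer GlyT1, had 55.0, 47.8 and 70.9 CPM with Au_TCPP, 37.7, 43.6 and 38.1 CPM with Cu_TCPP and 60.1, 63.9 and 60.4 CPM in Control. The Cu_TCPP libraries were the 3 lowest, and the Au_TCPP libraries scattered on both sides of Control. It fell by 0.63 on the log2 scale with Cu_TCPP (SE 0.12, adjusted p = 0.00093) and was 1.45-fold higher with Au_TCPP than with Cu_TCPP (log2 0.54, SE 0.12, adjusted p = 0.0013), a call lost with library totals alone (adjusted p = 0.21). Without Au_TCPP replicate 3 that difference was 0.32. Au_TCPP against Control gave -0.09 (adjusted p = 0.53), and -0.29 (adjusted p = 0.017) without Au_TCPP replicate 3. Exons of Ccdc24 on the opposite strand overlap 1429 bases of Slc6a9, 27.8% of its length, and Ccdc24 averaged at most 0.328 CPM in any group. Exons of B4galt2, also on that strand, overlap 46 bases of Slc6a9, 0.895% of its length. B4galt2 averaged 22.3, 44.1 and 40.2 CPM in Au_TCPP, Cu_TCPP and Control, and reads in the shared bases cannot be told apart.

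Transporter genes of the lysosome were lower with Au_TCPP. Slc36a1 (ENSMUSG00000020261, chr11:55204350-55236330, plus strand) encodes PAT1, which moves small amino acids out of the lysosome together with protons. Its levels were 9.63, 11.1 and 10.9 CPM with Au_TCPP, 23.9, 25.8 and 25.4 CPM with Cu_TCPP and 29.3, 28.1 and 27.8 CPM in Control. The Au_TCPP libraries lay far below the other 6, and the Cu_TCPP libraries just below Control. It fell by 1.43 on the log2 scale with Au_TCPP against Control (SE 0.10, adjusted p = 2.1e-08) and by 1.25 against Cu_TCPP (SE 0.10, adjusted p = 8.7e-08), and Cu_TCPP against Control did not pass (-0.18, adjusted p = 0.14).

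Slc38a7 (ENSMUSG00000036534, chr8:95835920-95853539, minus strand) encodes SNAT7, which lets glutamine out of the lysosome. It had 13.9, 15.1 and 18.5 CPM with Au_TCPP, 14.9, 17.1 and 16.8 CPM with Cu_TCPP and 28.1, 29.5 and 27.9 CPM in Control. Both materials lay below Control and overlapped each other. The gene was 1.80-fold lower with Au_TCPP (log2 -0.85, SE 0.12, adjusted p = 1.7e-05) and 1.75-fold lower with Cu_TCPP (log2 -0.81, SE 0.12, adjusted p = 9.8e-05) than in Control. The difference between the materials was -0.04 (SE 0.12, adjusted p = 0.79).

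Slc38a9 (ENSMUSG00000047789, chr13:112660751-112738749, plus strand) encodes a lysosomal carrier that senses arginine for mTORC1. It had 10.1, 15.6 and 11.05 CPM with Au_TCPP, 13.8, 12.5 and 12.5 CPM with Cu_TCPP and 15.9, 16.2 and 16.6 CPM in Control. Every treated library was below every Control library, with Au_TCPP replicate 2 close to them. It was 1.32-fold lower with Au_TCPP than in Control (log2 -0.41, SE 0.15, adjusted p = 0.026). Without Au_TCPP replicate 2 the value was -0.65 (adjusted p = 0.00012). The call did not hold without Au_TCPP replicate 1 or 3 (adjusted p = 0.089 and 0.060) or with limma on log2 FPKM (adjusted p = 0.054 with a pseudocount of 1 and 0.077 with 0.1), and with the length offset the value was 0.14 (adjusted p = 0.42). Cu_TCPP against Control was -0.33 (adjusted p = 0.088), and Au_TCPP against Cu_TCPP was -0.08 (adjusted p = 0.66), or -0.33 (adjusted p = 0.028) without Au_TCPP replicate 2.

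Slc36a4 (ENSMUSG00000043885, chr9:15709738-15743361, plus strand), which encodes the related carrier PAT4, averaged 3.56 ± 0.818 CPM with Au_TCPP, 5.58 ± 0.594 CPM with Cu_TCPP and 6.44 ± 0.865 CPM in Control (SD, n = 3 each). It was 1.80-fold lower with Au_TCPP than in Control (log2 -0.85, SE 0.20, adjusted p = 0.0017) and 1.56-fold lower than with Cu_TCPP (adjusted p = 0.012), and this second call was lost with the length offset (adjusted p = 0.093). Against Control, then, all 4 genes of this group were called lower with Au_TCPP, Slc38a9 least firmly, where 34.7% of all genes were lower. With Cu_TCPP 1 of the 4, Slc38a7, was called lower, where 21.2% of all genes were.

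A further search of the windows, chosen after the values had been seen, was for CACGTG, the E-box known from promoters of lysosomal genes. It was found in 7.15% of all windows, or for 8.09% of the genes with windows, and, of the 14 genes, in Slc36a1 and Slc38a7, which are shown because both were lower with Au_TCPP. The windows of Slc36a4 and Slc38a9, also called lower with Au_TCPP, did not hold it. Of the 42 transporter genes with windows, tested or not, 9 held it. The stretches of Slc36a1 and Slc38a7 cover chr11:55204190-55204359 (plus strand) and chr8:95853472-95853641 (minus strand), 150 bases before to 20 after the start, with the motif in capitals.
Slc36a1: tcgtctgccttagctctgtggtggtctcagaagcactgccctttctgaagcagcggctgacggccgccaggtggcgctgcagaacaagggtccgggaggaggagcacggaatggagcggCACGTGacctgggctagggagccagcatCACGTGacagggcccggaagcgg
Slc38a7: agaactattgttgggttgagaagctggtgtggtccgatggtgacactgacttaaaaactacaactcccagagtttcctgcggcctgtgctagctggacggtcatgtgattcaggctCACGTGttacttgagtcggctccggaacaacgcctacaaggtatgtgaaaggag
The motif begins 31 and 3 bases before the start in Slc36a1 and 34 before it in Slc38a7, and since it reads the same on both strands each site counts once. Searches for TGANTCA and TGACNNNGC, the letters of AP-1 and antioxidant response elements, were also chosen after the values had been seen. These motifs were found in 7.81% and 12.4% of all windows, or for 8.97% and 14% of the genes with windows. TGANTCA was in 3 of the 14 genes (Slc38a7, Slc38a10 and Slc7a1) and TGACNNNGC in 5 (Slc36a1, Slc38a2, Slc6a9, Slc7a1 and Slc7a6). Slc6a9 has 3 windows, and Slc7a1 and Slc7a6 have 2 each, which gives more places for a match. Enrichment was not tested. The window of Slc3a2 held none of the 4 motifs.

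The last genes of the Slc38 family, Slc38a6 and Slc38a10, are less studied. Slc38a10 (ENSMUSG00000061306, chr11:120103960-120151346, minus strand) had 61.8, 63.6 and 62.3 CPM with Au_TCPP, 140, 171 and 154 CPM with Cu_TCPP and 132, 129 and 138 CPM in Control. The Au_TCPP libraries were tightly grouped below all others, and the Cu_TCPP libraries lay just above Control. It was 2.13-fold lower with Au_TCPP than in Control (log2 -1.09, SE 0.09, adjusted p = 5.9e-08) and 2.47-fold lower than with Cu_TCPP (log2 -1.31, SE 0.09, adjusted p = 1.1e-08). Cu_TCPP against Control was 0.22 (adjusted p = 0.055), and 0.23 (adjusted p = 0.012) without Au_TCPP replicate 2. Slc38a6 (ENSMUSG00000044712, chr12:73286779-73354049, plus strand) averaged 4.54 ± 0.612 CPM with Au_TCPP, 6.35 ± 0.0476 CPM with Cu_TCPP and 7.56 ± 0.328 CPM in Control (SD, n = 3 each). It was 1.66-fold lower with Au_TCPP than in Control (adjusted p = 0.00089) and 1.40-fold lower than with Cu_TCPP (adjusted p = 0.017, or 0.33 with the length offset).

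Spread within the groups was unequal. Over the 19 genes the ratio of the highest to the lowest of the 3 libraries had a median of 1.41 in Au_TCPP, 1.11 in Cu_TCPP and 1.06 in Control. Au_TCPP replicate 2 was the lowest of its group in 9 genes, among them Slc3a2, Slc7a5, Slc1a4 and Slc1a5, the highest in 6, among them Slc43a2 and Slc6a8, and between the others in 4. Without it, 7 genes were called higher and 10 lower in Au_TCPP than in Control, the added ones being Slc1a4, Slc1a5 and Slc38a1. Of the 14232 genes tested in that setting, 4856 were higher and 5253 lower.

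**Figure D4:**
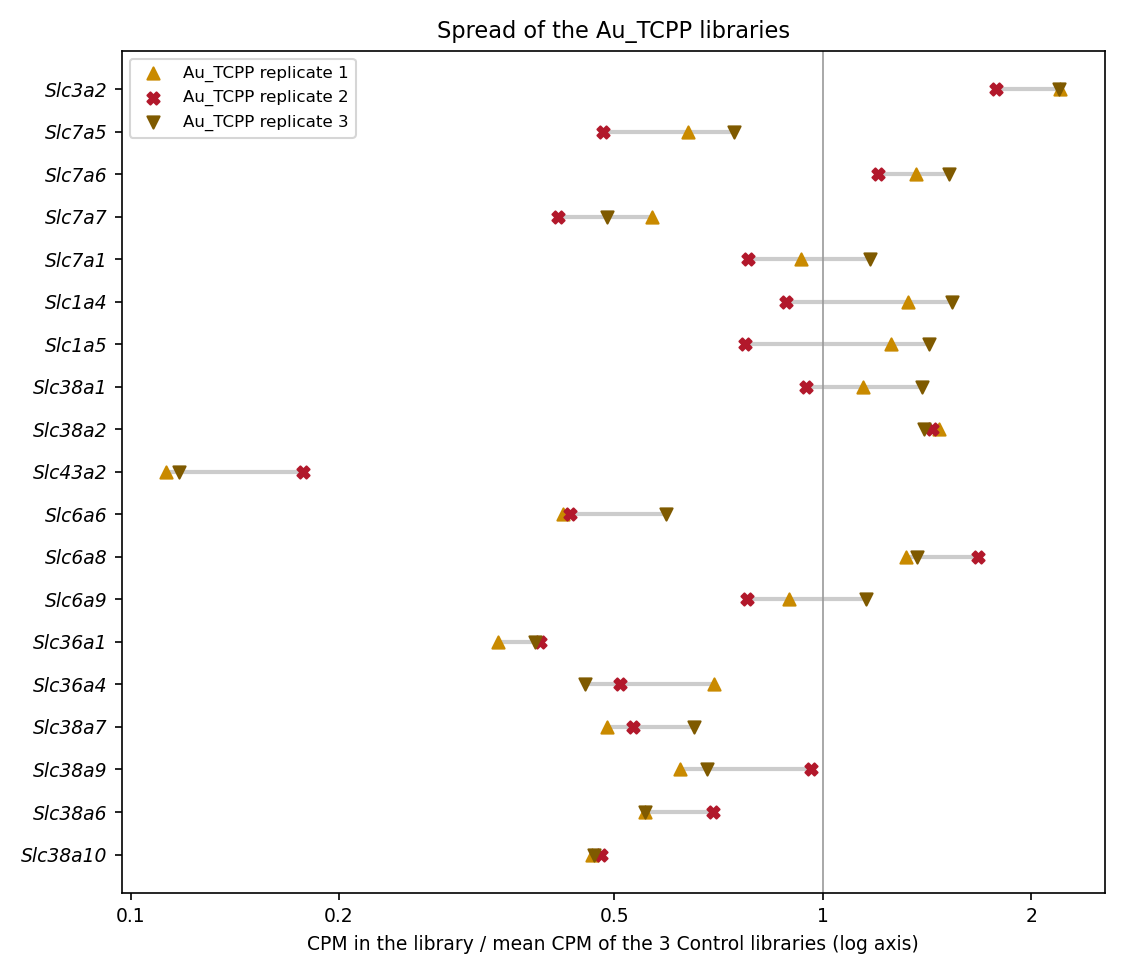
CPM of each of the 3 Au_TCPP libraries divided by the mean of the 3 Control libraries, for the 19 genes on a log axis, with grey lines joining the lowest and highest library. Replicate 2 lies below 1 where replicates 1 and 3 lie above it for Slc1a4, Slc1a5 and Slc38a1.

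Gene length moved with the Au_TCPP comparison. The 19 genes are long, with a median of 5626 bases (3315 to 17236), against 3861 over all genes tested. When all genes tested were split by length into 10 bins of equal number, the bin of 3158 to 3861 bases, which holds Slc3a2, Slc7a5 and Slc7a7, had a median log2 fold change of 0.02 in Au_TCPP against Control, with quartiles of -0.61 and 0.57. Slc3a2 lay above that upper quartile, and Slc7a5 and Slc7a7 lay below the lower one. In the longest bin (9264 bases and over), which holds Slc43a2, Slc7a1, Slc38a9 and Slc38a1, the median was -0.50, with quartiles of -1.01 and 0.05. There Slc43a2 lay below the lower quartile, Slc38a1 above the upper one, and Slc7a1 and Slc38a9 above the median. In Cu_TCPP against Control the medians of the bins lay between -0.04 and 0.01. With an offset for the trend of counts on length, 7 transporter genes were higher and 9 lower in Au_TCPP than in Control. Of all 13915 genes, 4717 were higher and 4487 lower in that setting. Against Cu_TCPP 7 transporter genes were higher and 6 lower, where 4878 and 4037 of all genes were. The part of length in single genes was not tested further.

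**Figure D5:**
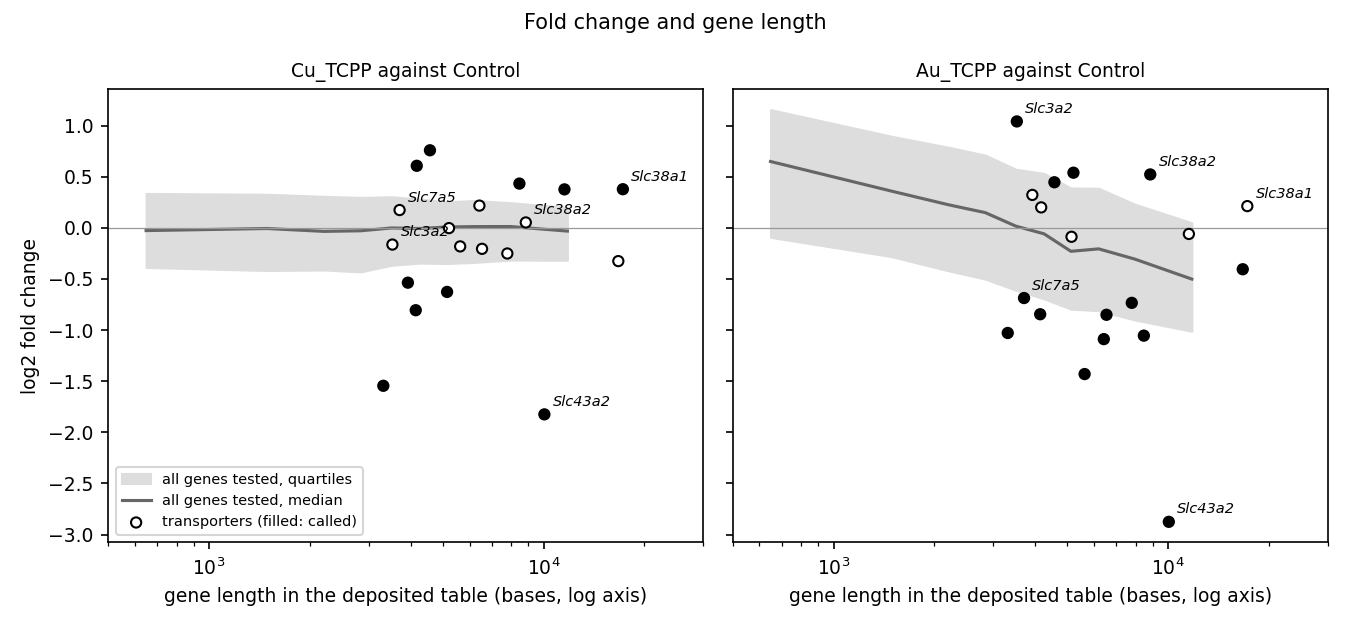
Log2 fold change of the transporter genes (points, filled where called) against gene length in bases on a log axis, for Cu_TCPP and for Au_TCPP against Control, with the median (line) and quartiles (grey band) of all genes tested in 10 bins of length. In Au_TCPP the median of all genes falls with length to -0.50 in the longest bin, and in Cu_TCPP it stays near 0.

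Genes on a list of Atf4, its regulators and its known targets were largely higher with Au_TCPP. Whether the cells were short of amino acids was not tested. Of the 26 tested of 27 listed, 17 (65.4%) were higher and 5 (19.2%) lower than in Control, where 34.4% of all genes were higher and 34.7% lower, with a median log2 fold change of 0.77. Against Cu_TCPP 16 (61.5%) were higher and 5 (19.2%) lower, where 34.6% of all genes were higher and 31.3% lower. With library totals alone these splits were 14 and 7, and 12 and 9. Those of all 13915 genes were then 2626 and 7098, and 2830 and 6526. Atf4 averaged 689 CPM with Au_TCPP, 449 CPM with Cu_TCPP and 339 CPM in Control, and was higher with each material than in Control (adjusted p = 9.5e-07 with Au_TCPP and 0.0077 with Cu_TCPP). Trib3, a pseudokinase that dampens Atf4, averaged 372, 136 and 155 CPM in these groups, and Sesn2, which senses leucine, 167, 46.1 and 31.1 CPM, both higher with Au_TCPP than in Control (adjusted p = 3.6e-07 and 5.0e-11). Asns, asparagine synthetase and a classic target, averaged 485, 484 and 430 CPM and was not called in any comparison (adjusted p = 0.19, 0.25 and 0.98 for Au_TCPP against Control, Cu_TCPP against Control and Au_TCPP against Cu_TCPP). The 5 lower with Au_TCPP than in Control were Shmt2, Aldh18a1, Gpt2 and Pycr1, enzymes of serine, proline and alanine metabolism, and, named after its values were seen, Eif2ak4, the gene of Gcn2 (20.5 CPM with Au_TCPP against 33.0 CPM in Control, adjusted p = 1.5e-05). With Cu_TCPP 5 of the 26 were higher and 5 lower than in Control, 38.5% in all and near the 40.4% of all genes, median 0.05. In the 6 libraries of that comparison alone, as without Au_TCPP replicate 2, these were 10 and 9. Of all genes tested, 3720 were higher and 3661 lower of 13576 in the first setting, and 3627 and 3552 of 14232 in the second.

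In a list of mTORC1 and the proteins through which it reads amino acids, 30 of 33 were tested. Against Control 10 were higher and 14 lower with Au_TCPP, and 5 higher and 6 lower with Cu_TCPP. These are 80% of the 30 with Au_TCPP, where 69.1% of all genes were called. With Cu_TCPP they are 36.7%, near the 40.4% of all genes. In the 6 libraries of Cu_TCPP and Control alone, 7 were higher and 11 lower, where 3720 and 3661 of all 13576 genes tested were. Against Cu_TCPP 13 were higher and 13 lower with Au_TCPP, 86.7% of the 30, where 65.9% of all genes were called. Mtor, the kinase, averaged 41.7 CPM with Au_TCPP, 112 CPM with Cu_TCPP and 102 CPM in Control (adjusted p = 5.5e-08 for Au_TCPP against Control). Rheb, the GTPase that activates mTORC1, averaged 287, 129 and 107 CPM (adjusted p = 1.3e-07). With library totals alone the split of Au_TCPP against Control was 5 higher and 18 lower. That of Au_TCPP against Cu_TCPP was 7 higher and 16 lower. Of all 13915 genes, 2626 were higher and 7098 lower in the first comparison, and 2830 and 6526 in the second.

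Other amino acid carriers outside the families of the rule, most of them mitochondrial or vesicular, gave 14 genes tested of 19. Against Control 3 were higher and 4 lower with Au_TCPP, and 4 higher and 2 lower with Cu_TCPP. These are 50% of the 14 with Au_TCPP, below the 69.1% of all genes, and 42.9% with Cu_TCPP, near the 40.4% of all genes. Between the materials 4 were higher and 5 lower in Au_TCPP, 64.3% of the 14, near the 65.9% of all genes. With library totals alone 1 was higher and 8 lower with Au_TCPP than in Control, and 2 higher and 6 lower than with Cu_TCPP. In that setting 2626 of all 13915 genes were higher and 7098 lower than in Control, and 2830 and 6526 than with Cu_TCPP. Slc25a38, the mitochondrial glycine importer, averaged 23.4 CPM with Au_TCPP, 9.88 CPM with Cu_TCPP and 6.92 CPM in Control, 3.38-fold higher with Au_TCPP than in Control (adjusted p = 2.1e-08). Slc25a44, which brings branched-chain amino acids into mitochondria, averaged 9.18, 26.1 and 19.9 CPM in the same groups, 2.16-fold lower with Au_TCPP than in Control (adjusted p = 1.6e-05). Ctns, the lysosomal cystine exporter, was 1.99-fold lower with Cu_TCPP than in Control, at 9.55 against 19.0 CPM (adjusted p = 0.0011).

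Markers of the line and of other cells were checked beside these results. Of 6 epithelial markers 5 were tested, and their list summed to 4060 to 4970 CPM in Au_TCPP, 2724 to 3046 in Cu_TCPP and 2787 to 3026 in Control. The macrophage list, of which 2 of 6 were tested, summed to 61.4 to 77.3 CPM in Au_TCPP, 15.99 to 19.99 in Cu_TCPP and 28.1 to 31.7 in Control, mostly from Cd68, a lysosomal protein gene, while Adgre1 was at 0 in all libraries. The lymphocyte list, with 1 of 6 tested, summed to at most 3.87 CPM in any library. The fibroblast list, with 2 of 6 tested and Pdgfrb and Lum at 0, summed to 26.7 to 31.7 CPM in Au_TCPP, 16.3 to 19.7 in Cu_TCPP and 35.2 to 40.6 in Control. The endothelial list, with 1 of 6 tested, summed to 30.4 to 35.8 CPM in Au_TCPP, 35.3 to 37.6 in Cu_TCPP and 41.6 to 46.3 in Control. Their part in the transporter differences was not tested.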

How the data were processed

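Members and lists were chosen with earlier results of these data known. Read counts per gene, not normalized, were deposited by the authors. The FPKM, a level relative to library size and gene length, were also deposited by the authors. The submitters' processing notes name mm10, Bowtie 0.12.9, Cufflinks 2.1.1 and HTSeq, and no source says whether strand was used. Per the labels' protocols, mRNA libraries came from a QIAseq single-cell RNA kit.

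edgeR 4.0.16 (R 4.3.3) tested the counts: TMM factors, filterByExpr, a robust quasi-likelihood model with 1 mean for each group, fitted to the 9 libraries, and Benjamini-Hochberg adjustment over 13915 genes at 0.05. A standard error is the absolute log2 fold change over the square root of F. The steps were tested on simulated data. The 19 alternatives were RLE factors, unscaled library totals, DESeq2 1.42.0, no filter, at least 1 CPM in 3 libraries, a replicate block, a fit to the compared 6 libraries, limma 3.58.1 on log2 FPKM with a pseudocount of 1 or 0.1, an offset for gene length (a spline with 5 degrees of freedom) and leaving out each library. Total counts lay between 15477324 and 17494776 per library, and the biological coefficient of variation was 10.6%. Replicates differed by more than sampling noise, with a chi-square per gene of 2.63 to 39.3 between pairs.

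Every transporter gene tested is named, with each library's value where a group averaged at least 10 CPM. Of the other lists, the 3 called genes with the smallest p in a comparison and genes with at least 50 CPM could be named. All 60 identifiers are in GENCODE M21, which gave the exon overlaps. Promoter sequences are from RefSeq. The values of 2 genes of the other lists are not reported here.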

Additional observations from a re-analysis of the deposited data

How the results depend on the processing

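The number of transporter genes called was 14 for Au_TCPP against Control (13 to 17 over the alternatives), 10 for Cu_TCPP against Control (9 to 14) and 16 for Au_TCPP against Cu_TCPP (13 to 17). Leaving out 1 library gave 14 to 17, 9 to 14 and 15 to 17. Calls over all genes moved with the setting too. In Cu_TCPP against Control they were 2024 higher and 2202 lower of 14237 without Control replicate 2. In the 6 libraries of that comparison they were 3720 and 3661 of 13576. In Au_TCPP against Control they were 4225 and 4634 of 14231 without Control replicate 1. Without Au_TCPP replicate 2 they were 4856 and 5253 of 14232. Between the materials that last setting gave 4783 and 4839 of 14232. Of the 40 called results, 26 kept their call in all 19 alternatives and 14 lost it in at least 1. The replicate block gave 14, 10 and 15 called genes. Of all 13915 genes it called 4717 higher and 4788 lower, 2622 and 2886, and 4716 and 4343. Deviations from the group mean correlated at -0.085 to 0.09 between same-numbered libraries of different groups (9 pairs). Between other pairs (18 pairs) they correlated at -0.08 to 0.078. These ranges are alike, but small correlations cannot show whether same-numbered libraries shared a culture or day.

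Signs changed in 27 cases, 26 of them in results that were not called, and the cause was not tested. The called one was Slc38a9 in Au_TCPP against Control, 0.14 with the length offset. Also in Au_TCPP against Control, the offset gave 0.053 for Slc6a9 and 0.36 for Slc7a1, and library totals alone gave -0.11 for Slc1a4, -0.24 for Slc1a5 and -0.22 for Slc38a1. Leaving out 1 library gave -0.29 to 0.0085 for Slc6a9, -0.26 to 0.045 for Slc7a1 and -0.016 to 0.40 for Slc1a5. In Au_TCPP against Cu_TCPP the offset gave 0.40 for Slc38a1, 0.012 for Slc38a7 and 0.48 for Slc38a9, and leaving out 1 library gave -0.21 to 0.0098 for Slc38a7 and -0.33 to 0.0043 for Slc38a9. Slc6a8 in Cu_TCPP against Control, at 0 within its error, gave 0.026 with RLE factors, 0.021 with no filter, 0.026 with DESeq2, 0.0034 in the 6 libraries, 0.023 and 0.025 with limma and pseudocounts of 1 and 0.1, and -0.10 to 0.066 without 1 library.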

Other observations

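Slc1a7, an Slc1 glutamate carrier gene known from the retina, had too few reads to be tested and is named here after its values were seen. It had 8, 11 and 14 reads in the Au_TCPP libraries, 1, 5 and 0 reads in the Cu_TCPP libraries and 0, 2 and 2 reads in the Control libraries. Without a filter on low counts, where 48 of the 60 genes were tested, it was higher with Au_TCPP than in Control (adjusted p = 0.00025 in edgeR's quasi-likelihood test) and than in Cu_TCPP (adjusted p = 0.0015), and it was the 1 gene called among the 29 that this setting added. Of all 27284 genes tested in this setting, 4738 were higher and 5306 lower with Au_TCPP than in Control. Against Cu_TCPP these were 4795 and 4918. For Slc1a7, each Au_TCPP library lay above each of the other 6.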
